A study of Mus musculus with 16 samples.

Results

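The 9 genes described here encode thymic stromal lymphopoietin (Tslp), the type 2 cytokines IL-4 and IL-13 (Il4 and Il13), and receptor chains for TSLP, IL-4, IL-13 and IL-31 (Crlf2, Il7r, Il13ra2, Il31ra, Osmr and Il2rg). They were chosen by symbol, as 9 of the 23238 gene symbols in the count tables, and all 9 had an entry. The measurements came from the dorsal skin of male C57BL/6N mice, named C57BL/6 and wild type in the labels, which were 3 weeks old on arrival and acclimatised for 1 week. The 4 groups of 4 libraries were Cont (normal chow), LowAhR (a diet low in aryl hydrocarbon receptor ligands for 12 weeks), LowAhR+AD (the same diet, with 1% DNCB put on the back 2 times a week for 10 weeks) and LowAhR+AD+BJ (diet and DNCB, with BJIKT, a water extract of a herbal formula, given by gavage at 1 g/kg each day). DNCB is a hapten used to induce lesions that model atopic dermatitis (AD). Every DNCB-treated mouse ate the low-ligand diet, so the hapten was not examined on normal chow, and the sources used here do not say whether the other groups received a vehicle. Per the study's methods, mice on the low-ligand diet were also kept on ligand-free paper bedding, so diet and bedding cannot be told apart.

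TSLP is an epithelial cytokine that acts on dendritic cells, lymphocytes and sensory neurons through a receptor made of CRLF2 and the IL-7 receptor alpha chain. IL-4 and IL-13, made mainly by Th2 cells, group 2 innate lymphoid cells, mast cells and basophils, signal through IL-4Rα paired with the common gamma chain (Il2rg) or with IL-13Rα1. IL-13Rα2 binds IL-13 with high affinity and is best known as a decoy. IL-31, a cytokine tied to itch, signals through IL-31RA paired with the oncostatin M receptor chain OSMR. In skin these chains are found on keratinocytes, immune cells and sensory nerve fibres.

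The libraries were of the QuantSeq type, in which reads come from the 3′ end of a transcript and longer transcripts do not give more of them. Levels in CPM, counts scaled to library totals of common size, were on that account not divided by transcript length. Comparisons of level between genes are approximate, since the counter and its use of strand are not given. Library totals were 7080508 to 8773876 counts in Cont and LowAhR and 10614393 to 13467477 in both DNCB groups, so depth and DNCB treatment cannot be told apart. A count of 0 allows up to 3 counts, or 0.229 to 0.406 CPM depending on the library, for counting error only. LowAhR+AD replicate 1 stood apart: of the genes predicted from the other libraries to have 20 to 40 counts, 38.2% had 0 in it, against 0.798% to 13.6% elsewhere. Basal keratinocyte markers, 8 of 8 of which were detected in each group, differed in summed level between the groups. The sums were 3172 to 4455 CPM in Cont, 3326 to 3909 in LowAhR, 5767 to 11140 in LowAhR+AD and 5184 to 7810 in LowAhR+AD+BJ.

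Both type 2 cytokines were near the limit of detection, and the other members were measured. At least 1 count was found in 110 of the 144 pairs of gene and library, and all of these had at least 3 counts. Tslp, Crlf2, Il7r, Il13ra2, Osmr and Il2rg were detected in 16 of 16 libraries, Il31ra in 11, Il13 in 2 and Il4 in 1. When every library was thinned in calculation to the smallest total, 10.9 libraries were still expected to show Il31ra, 1.99 Il13 and 0.985 Il4. The 7 members other than Il4 and Il13 passed the filter on low counts and were tested.

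**Figure D1:**
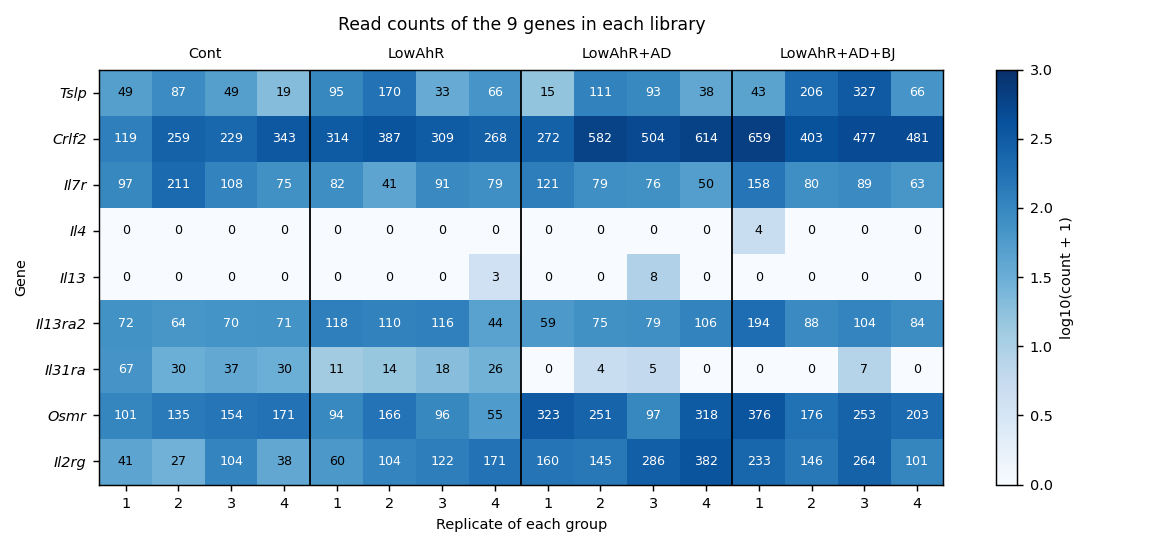
Read counts of the 9 genes (vertical axis) in each of the 16 libraries (horizontal axis, replicates 1 to 4 of each group), with the count printed in each cell and the shade showing log10(count + 1). Il4 and Il13 are at 0 outside 1 and 2 libraries, and Il31ra runs from 30 to 67 in Cont to 0 to 7 in both DNCB groups.

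Il4 had 4 counts in all, and all came from LowAhR+AD+BJ replicate 1 (0.365 CPM). Il13, whose gene lies next to Il4 on chromosome 11, had 3 counts in LowAhR replicate 4 (0.358 CPM) and 8 in LowAhR+AD replicate 3 (0.622 CPM). The libraries with a count of Il4 and those with a count of Il13 were thus different, and no group had counts in more than 1 library. Il5, the eosinophil cytokine of the same cluster, had counts in 1 library of each group (0.599 CPM in Cont, 3.38 in LowAhR, 0.903 in LowAhR+AD and 0.545 in LowAhR+AD+BJ), while the neighbouring DNA repair gene Rad50 averaged 135, 97.5, 68.0 and 65.5 CPM in the same order of groups. No difference in Il4 or Il13 between groups was detectable at this depth, which is not evidence that the cytokines were absent.

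Il31ra, the ligand-binding chain of the IL-31 receptor, had the widest spread of log2 changes of the tested members. Its level was 8.60, 3.88, 4.57 and 3.59 CPM in Cont replicates 1 to 4, 1.49, 1.79, 2.34 and 3.10 CPM in LowAhR, 0, 0.328, 0.389 and 0 CPM in LowAhR+AD, and 0, 0, 0.545 and 0 CPM in LowAhR+AD+BJ. All Cont libraries lay above all LowAhR libraries, and all of those lay above every DNCB library. At the LowAhR mean of 2.18 CPM, the DNCB libraries would have held 21.4 to 28.6 counts each, and they held 0 to 7. Counting error is not the only source of zeros. Of genes predicted at 20 to 40 counts, 38.2% had 0 in LowAhR+AD replicate 1 and 12.2% in replicate 4. In LowAhR+AD+BJ replicates 1, 2 and 4, the shares were 5.24%, 5.19% and 13.1%. The group means were 5.16 ± 2.33 CPM in Cont, 2.18 ± 0.71 in LowAhR, 0.179 ± 0.208 in LowAhR+AD and 0.136 ± 0.272 in LowAhR+AD+BJ (SD, n = 4).

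Il31ra fell in LowAhR+AD against Cont, by 4.75 on the log2 scale (SE 1.40, adjusted p = 0.0210, edgeR's quasi-likelihood test with Benjamini-Hochberg adjustment over 14854 tested genes). Of all tested genes, 9.47% were called lower in this comparison and 11.8% were lower without overlap of the groups. The call was lost without Cont replicate 1 (adjusted p = 0.0566) or LowAhR+AD replicate 4 (adjusted p = 0.0519), and it held without LowAhR+AD replicate 1 (adjusted p = 0.0323). Against LowAhR, the change in LowAhR+AD was -3.52 (SE 1.33, adjusted p = 0.0895) and that in LowAhR+AD+BJ was -3.81 (SE 1.36, adjusted p = 0.101). Neither passed with edgeR, although DESeq2 gave adjusted p = 0.0105 for both (limma voom, 0.0222 and 0.0248). The groups did not overlap in either comparison, as was the case in the lower direction for 9.85% and 8.19% of all tested genes. LowAhR was also lower than Cont without overlap, which held for 5.63% of genes, but the change of -1.24 (SE 1.20) did not pass (adjusted p = 0.716). In bulk skin, fewer cells of a type and less RNA per cell cannot be told apart.

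Osmr, the chain that pairs with IL-31RA and also serves oncostatin M, did not show this pattern. Its level was 13.0, 17.4, 19.0 and 20.5 CPM in Cont, 12.7, 21.2, 12.5 and 6.56 CPM in LowAhR, 24.7, 20.6, 7.54 and 25.5 CPM in LowAhR+AD, and 34.3, 17.9, 19.7 and 20.5 CPM in LowAhR+AD+BJ. The groups overlapped in every comparison, with the highest library in LowAhR+AD+BJ and the lowest in LowAhR. Its change was 0.56 (SE 0.39, adjusted p = 0.369) in LowAhR+AD against LowAhR and 0.16 (SE 0.39, adjusted p = 0.809) against Cont. The ratio of the partner chains was not itself tested.

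**Figure D2:**
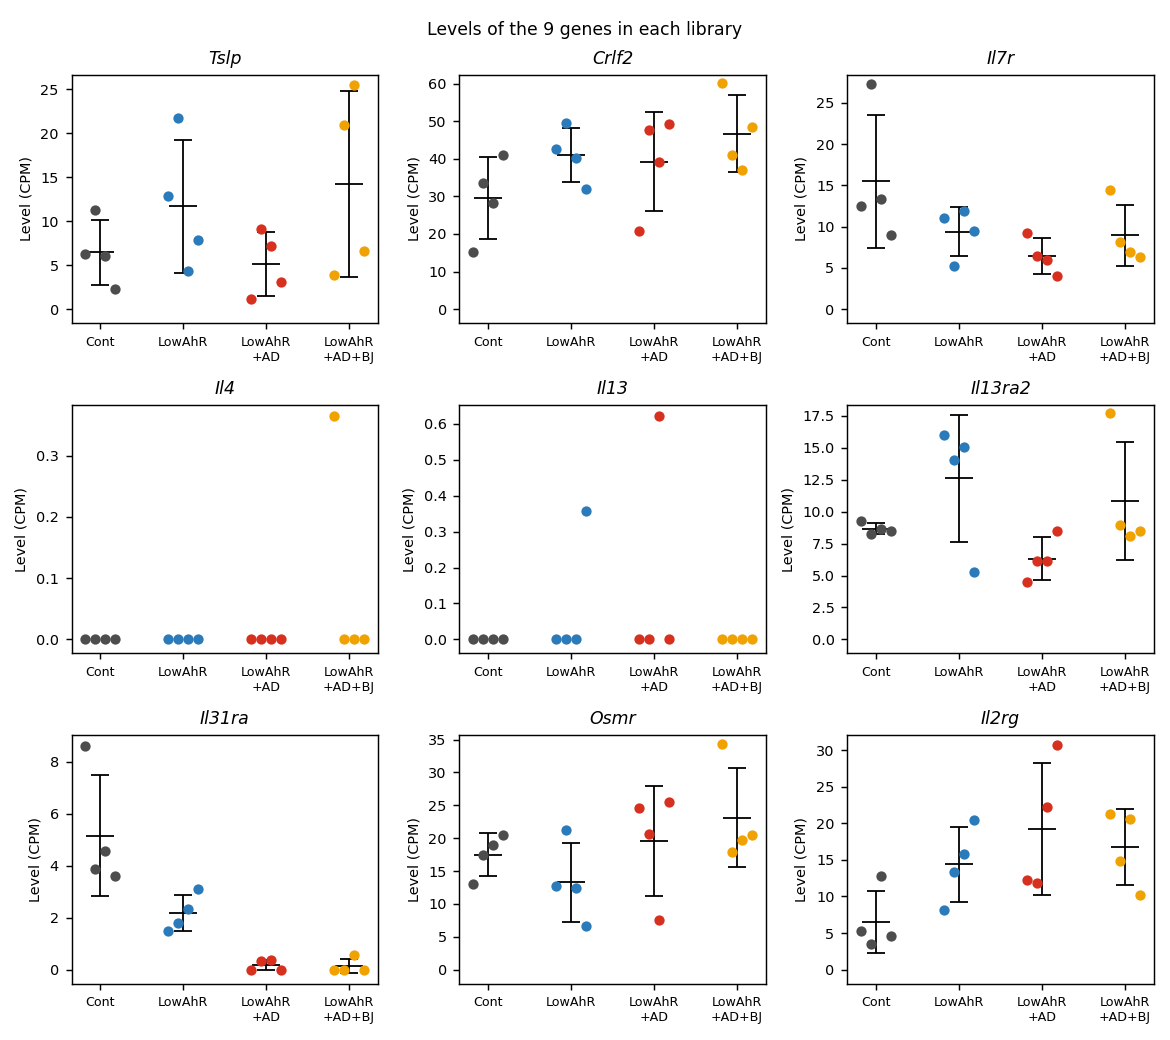
Level of each of the 9 genes in CPM (vertical axis, a separate scale for each gene) by group (horizontal axis). Points are libraries in order of replicate number, and bars show the mean and SD of 4 libraries, omitted for Il4 and Il13, which had counts in 1 and 2 libraries. Il31ra separates the groups stepwise from 3.59 to 8.60 CPM in Cont to 0 to 0.545 CPM in the DNCB groups, while the other tested genes overlap.

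The ligands of these chains gave few counts. Il31 itself had 31 counts in LowAhR replicate 2 (3.97 CPM) and 0 in the other 15 libraries. Osm, encoding oncostatin M, averaged 0.553 CPM in Cont, 0.119 in LowAhR, 0.482 in LowAhR+AD and 1.68 in LowAhR+AD+BJ, and had counts in 10 of 16 libraries. Neither gives a basis for a difference between groups at this depth.

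Il2rg, the common gamma chain shared by the receptors for IL-2, IL-4, IL-7, IL-9, IL-15 and IL-21, rose in LowAhR+AD against Cont. Its level was 5.26, 3.49, 12.8 and 4.55 CPM in Cont, 8.12, 13.3, 15.9 and 20.4 CPM in LowAhR, 12.2, 11.9, 22.2 and 30.7 CPM in LowAhR+AD, and 21.3, 14.9, 20.5 and 10.2 CPM in LowAhR+AD+BJ. Cont held the 3 lowest libraries, but its replicate 3 overlapped all the other groups. The change against Cont was 1.56 (SE 0.45, adjusted p = 0.0203 with edgeR), in a comparison where 12.3% of all tested genes were called higher. It was not called by limma voom (adjusted p = 0.0521) or in a fit to only the 8 libraries compared (adjusted p = 0.0603), nor when Cont replicate 1, 2 or 4 or LowAhR+AD replicate 4 was left out, where adjusted p ran from 0.0537 to 0.0796. LowAhR against Cont gave 1.14 (SE 0.45, adjusted p = 0.254), and LowAhR+AD against LowAhR gave 0.42 (SE 0.44, adjusted p = 0.580).

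Il7r, the IL-7 receptor alpha chain that also completes the TSLP receptor, fell in LowAhR+AD against Cont. Its level was 12.5, 27.3, 13.3 and 8.98 CPM in Cont, 11.1, 5.25, 11.8 and 9.43 CPM in LowAhR, 9.23, 6.48, 5.91 and 4.02 CPM in LowAhR+AD, and 14.4, 8.15, 6.92 and 6.35 CPM in LowAhR+AD+BJ. Cont replicate 2 was the highest of all libraries, and LowAhR+AD replicate 1 lay just above the lowest Cont library. The change was -1.27 (SE 0.43, adjusted p = 0.0438 with edgeR), and without Cont replicate 2 it was -0.85 (adjusted p = 0.206). It was also lost without Cont replicate 1 or 3 and without LowAhR+AD replicate 2, 3 or 4 (adjusted p from 0.0539 to 0.118), with limma voom (adjusted p = 0.0530), in a fit to only the 8 libraries compared (adjusted p = 0.0775) and without the filter on low counts (adjusted p = 0.0636). Against LowAhR, Il7r changed by -0.55 (SE 0.43, adjusted p = 0.434).

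Of 13 tested T cell markers, 2 were called lower in LowAhR+AD against Cont, Cd3e and Cd3g of the T cell receptor complex, beside 9.47% of all tested genes. The summed level of 14 T cell markers was 28.5 to 50.8 CPM in Cont, 35.3 to 67.0 in LowAhR, 6.48 to 19.0 in LowAhR+AD and 10.04 to 28.3 in LowAhR+AD+BJ. Cd6 was at 0 throughout Cont. The summed level of 9 dendritic cell markers was 36.8 to 64.8 CPM in Cont, 49.3 to 67.8 in LowAhR, 0 to 23.5 in LowAhR+AD and 18.3 to 55.7 in LowAhR+AD+BJ, with the 0 in LowAhR+AD replicate 1. Only 1 of these 9 genes, Cd207, was called lower in LowAhR+AD against Cont, beside 9.47% of all tested genes. Of the other lists, activated keratinocyte markers rose in LowAhR+AD against Cont for 10 of 10 genes (902 to 1401 CPM in Cont, 12372 to 34113 in LowAhR+AD), hair follicle markers for 14 of 15 (33.0 to 972 and 6571 to 25467 CPM) and neutrophil markers for 5 of 8 tested (5.06 to 6.07 and 19.99 to 139 CPM). In this comparison 12.3% of all tested genes were called higher and 9.47% lower. Mast cell and basophil markers, from cells that can make IL-4 and IL-13, rose for 3 of 9 tested (322 to 413 and 512 to 1018 CPM), while of the markers of group 2 innate lymphoid and Th2 cells 2 of 9 tested fell, Gata3 and Rora, and the Th2 receptor gene Ccr8 was at 0 in every library. Eosinophil markers rose for 2 of 4 tested, Ccr3 and Siglecf, with sums that overlapped (3.59 to 7.54 and 0.0763 to 19.6 CPM). Of 10 macrophage markers, 0 were called, and of 8 basal keratinocyte markers 2 were called higher and 2 lower. Fibroblast markers fell for 4 of 9 genes (28695 to 71239 CPM in Cont, 4191 to 23272 in LowAhR+AD), skeletal muscle markers for 6 of 10 (6488 to 11561 and 435 to 3594 CPM) and adipocyte markers for 3 of 8 (3053 to 5853 and 382 to 3980 CPM), and the sums of the former pair of lists did not overlap. The part of these lists in the changes of Il31ra, Il7r and Il2rg was not tested.

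**Figure D3:**
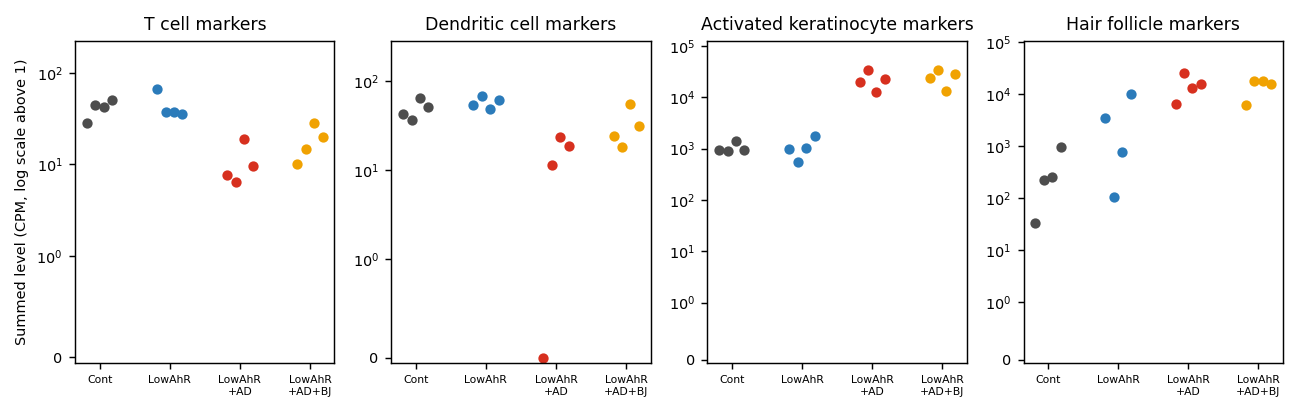
Summed level of the markers of T cells, dendritic cells, activated keratinocytes and hair follicles (vertical axis, CPM, logarithmic above 1 and linear below) by group, 1 point per library. In LowAhR+AD the T cell sum is 6.48 to 19.0 CPM against 28.5 to 50.8 in Cont, and the activated keratinocyte sum is 12372 to 34113 CPM against 902 to 1401.

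Il31ra, Il7r and Il2rg were thus the 3 members called in LowAhR+AD against Cont (2 lower and 1 higher of 7 tested, beside 9.47% and 12.3% of all tested genes). In the GENCODE M21 annotation of GRCm38 (mm10), all lie on the minus strand, Il31ra on chromosome 13 from 112519898 to 112594360, Il7r on chromosome 15 from 9505788 to 9530176 and Il2rg on chromosome X from 101264378 to 101268255. In the annotation the pseudogene Gm3226 overlaps Il31ra and the gene Gm20489 overlaps Il2rg, on the same strand, and neither had an entry in the count tables. The 250 bases before their RefSeq start sites (GRCm38.p6, chr13:112580663-112580912, chr15:9529877-9530126 and chrX:101268256-101268505, minus strand) are shown because receptor chains of this family are read out through STAT proteins, and capitals mark a match to the STAT motif TTCNNNGAA on either strand.
Il31ra: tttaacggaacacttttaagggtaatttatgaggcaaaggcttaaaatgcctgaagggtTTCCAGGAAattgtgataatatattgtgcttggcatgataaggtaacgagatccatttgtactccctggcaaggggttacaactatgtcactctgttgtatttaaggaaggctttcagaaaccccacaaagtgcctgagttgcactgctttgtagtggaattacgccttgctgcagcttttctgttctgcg
Il7r: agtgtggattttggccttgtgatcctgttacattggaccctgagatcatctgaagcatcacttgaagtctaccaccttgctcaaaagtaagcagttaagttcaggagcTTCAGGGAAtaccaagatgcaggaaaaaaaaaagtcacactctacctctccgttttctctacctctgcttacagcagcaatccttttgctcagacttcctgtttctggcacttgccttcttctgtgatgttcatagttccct
Il2rg: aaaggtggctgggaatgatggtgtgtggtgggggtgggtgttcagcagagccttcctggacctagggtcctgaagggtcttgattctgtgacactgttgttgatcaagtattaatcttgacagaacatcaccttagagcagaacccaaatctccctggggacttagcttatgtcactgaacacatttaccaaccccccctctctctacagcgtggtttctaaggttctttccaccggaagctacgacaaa
Il31ra held 1 match, whose first base was 191 bases before the start, Il7r held 1 at 142 bases, and Il2rg held none, nor did any of the 3 hold the STAT6 motif TTCNNNNGAA or the AP-1 motif TGANTCA. Of all 32851 RefSeq promoters of this length, 7.02% held TTCNNNGAA, 5.85% TTCNNNNGAA and 6.75% TGANTCA. A match describes the letters only. The Il31ra and Il7r windows lie within the GENCODE spans of these genes, so the RefSeq starts used are not at the ends of those spans. Distances refer to the RefSeq starts only. Among the 9 promoters matched to 8 of the members, 4 held any of the motifs, the others being AP-1 at 193 bases in Il13ra2 and STAT6 at 167 bases in 1 of 2 starts of Il4, and none held more than 1, so that no matches overlapped.

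No change in Tslp passed the test, and its libraries differed widely within each group. Its level was 6.29, 11.2, 6.05 and 2.27 CPM in Cont, 12.9, 21.8, 4.29 and 7.88 CPM in LowAhR, 1.14, 9.11, 7.23 and 3.05 CPM in LowAhR+AD, and 3.92, 21.0, 25.4 and 6.66 CPM in LowAhR+AD+BJ. Within LowAhR+AD+BJ, replicates 2 and 3 were high and replicates 1 and 4 lay among the LowAhR+AD libraries. The group means fell in the order LowAhR+AD+BJ (14.2 ± 10.6 CPM), LowAhR (11.7 ± 7.57), Cont (6.46 ± 3.68) and LowAhR+AD (5.13 ± 3.67; SD, n = 4), and no neighbours in that order differed (adjusted p = 0.859, 0.653 and 0.783). Between the ends of the order, LowAhR+AD+BJ exceeded LowAhR+AD by 1.47 (SE 0.70), with an unadjusted p = 0.0499 and adjusted p = 0.527 in edgeR. LowAhR+AD against LowAhR gave -1.19 (SE 0.70, adjusted p = 0.282). The antisense RNA gene 4930455D15Rik, which overlaps Tslp in the annotation, was listed with 0 counts in every library.

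Crlf2, the specific chain of the TSLP receptor, had the highest mean CPM of the members in each group, at 29.5 ± 10.9 CPM in Cont, 41.0 ± 7.23 in LowAhR, 39.2 ± 13.1 in LowAhR+AD and 46.7 ± 10.1 in LowAhR+AD+BJ. The libraries ranged from 15.3 CPM in Cont replicate 1 to 60.1 CPM in LowAhR+AD+BJ replicate 1, and all groups overlapped. The changes lay between -0.06 (LowAhR+AD against LowAhR, SE 0.30, adjusted p = 0.918) and 0.48 (LowAhR against Cont, SE 0.31, adjusted p = 0.537). In every group Crlf2 thus stood above Il7r, its partner in the TSLP receptor, whose means were 6.41 to 15.5 CPM. The same held in each library, with the closest values in Cont replicates 1 (15.3 and 12.5 CPM) and 2 (33.5 and 27.3 CPM).

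Il13ra2, encoding the IL-13 decoy chain, was 9.24, 8.27, 8.64 and 8.50 CPM in Cont and 15.96, 14.1, 15.1 and 5.25 CPM in LowAhR. It was 4.50, 6.15, 6.14 and 8.51 CPM in LowAhR+AD and 17.7, 8.96, 8.09 and 8.47 CPM in LowAhR+AD+BJ. In LowAhR, 3 libraries were above all those of Cont and LowAhR+AD, and replicate 4 was below every Cont library. The change in LowAhR+AD against LowAhR was -0.99 (SE 0.40, unadjusted p = 0.0240, adjusted p = 0.114 with edgeR), and without LowAhR replicate 4 it was -1.25 and passed (adjusted p = 0.0403). LowAhR+AD+BJ against LowAhR+AD gave 0.77 (SE 0.40, adjusted p = 0.552).

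Compared across the design, 3 of the 7 tested members were called in LowAhR+AD against Cont, where 21.8% of all tested genes were, and 0 in each of the other comparisons, which share groups with it and with each other. In LowAhR+AD against LowAhR, 0 members passed with edgeR, where 12.6% of all tested genes were called. There 2 members had an unadjusted p under 0.05 (Il31ra and Il13ra2), and DESeq2 and limma voom each called 1, Il31ra. In LowAhR+AD+BJ against LowAhR, 0 members passed beside 6.77% of all genes, with 1 member under the unadjusted threshold and 1 called by each of DESeq2 and limma voom, again Il31ra. In LowAhR against Cont, 0 members passed and 0% of all genes did with edgeR, although 2031 genes, among them Il2rg, had an unadjusted p under 0.05, and DESeq2 called 493 genes and limma voom 0, none of them a member. In LowAhR+AD+BJ against LowAhR+AD, likewise, 0 members and 0% of all genes passed with edgeR, 1405 genes, among them Tslp, had an unadjusted p under 0.05, and DESeq2 called 17 genes and limma voom 0, again without a member.

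The members had no common direction. Their median log2 change was -0.55 in LowAhR+AD against LowAhR, -0.33 in LowAhR+AD against Cont, 0.25 in LowAhR+AD+BJ against LowAhR+AD, 0.48 in LowAhR against Cont and 0.19 in LowAhR+AD+BJ against LowAhR, over the 7 tested. Over all tested genes the medians lay between -0.00024 and 0.05.

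**Figure D4:**
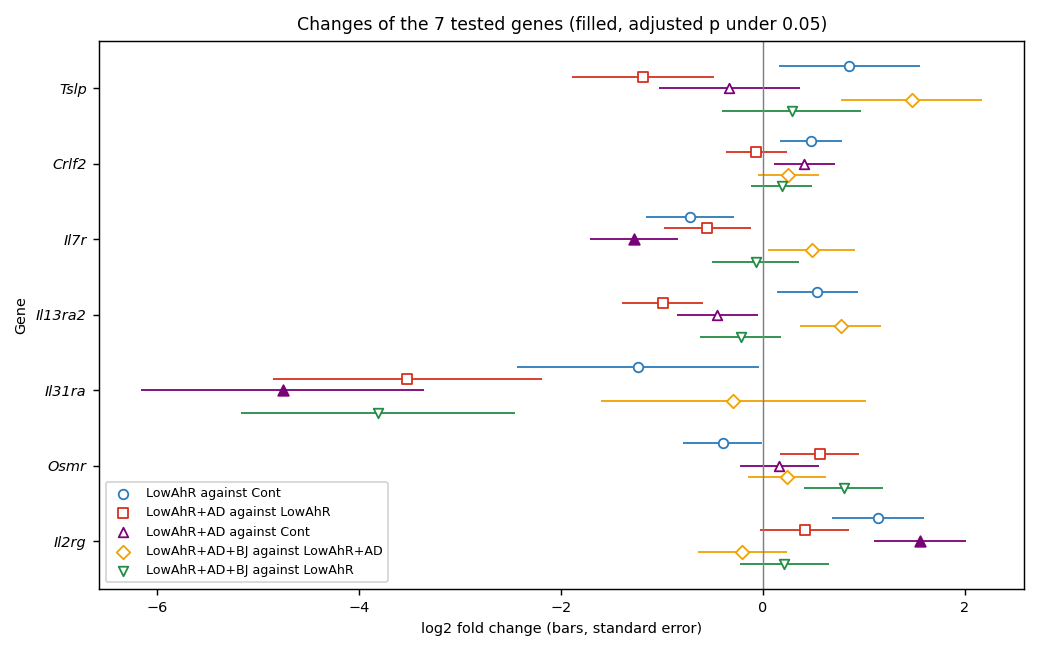
Change of each of the 7 tested genes (vertical axis) in the 5 comparisons, as log2 fold change (horizontal axis) with its standard error from edgeR. Filled symbols have an adjusted p under 0.05. Il31ra (-4.75) and Il7r (-1.27) are lower and Il2rg (1.56) is higher in LowAhR+AD against Cont, and no other symbol is filled.

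Of 14 tested genes for partner chains and other receptors of the same families, 1 rose and 2 fell in LowAhR+AD against LowAhR, where 12.6% of all tested genes were called, and Il4ra, Il6ra and Lifr were also the genes called against Cont, in the same directions. Il4ra, the chain shared by the IL-4 and IL-13 receptors, averaged 44.1 ± 11.1 CPM in Cont, 54.1 ± 12.7 in LowAhR, 114 ± 60.5 in LowAhR+AD and 129 ± 37.3 in LowAhR+AD+BJ, and rose by 1.07 in LowAhR+AD against LowAhR (SE 0.33, adjusted p = 0.0382). The call on Il4ra held in 3 of 8 fits with a library left out and was lost with limma voom. Il13ra1, the other chain of the type II receptor, was 51.3 ± 9.01 CPM in LowAhR and 71.7 ± 33.5 in LowAhR+AD (0.48, SE 0.32, adjusted p = 0.343).

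Il6ra, the IL-6 receptor alpha chain, fell the most of the partners called. It averaged 103 ± 20.1 CPM in Cont, 61.0 ± 9.81 in LowAhR, 9.75 ± 3.23 in LowAhR+AD and 11.4 ± 6.50 in LowAhR+AD+BJ, with a change of -2.64 in LowAhR+AD against LowAhR (SE 0.36, adjusted p = 3.36e-04). Lifr, the LIF receptor chain encoded next to Osmr, averaged 66.8 ± 7.37, 42.4 ± 4.50, 24.6 ± 4.49 and 29.9 ± 10.3 CPM in the same order, and its change of -0.79 (SE 0.24, adjusted p = 0.0373) was called in 1 of 8 fits with a library left out. Il6st, encoding the gp130 chain and lying next to Il31ra, was 67.1 ± 17.4 CPM in LowAhR and 52.3 ± 8.32 in LowAhR+AD (-0.36, SE 0.30, adjusted p = 0.474). Il15ra, the IL-15 receptor alpha chain, gave -1.72 (SE 0.85, adjusted p = 0.194).

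Among 5 of 15 other ligands that passed the filter, 0 were called in any comparison with edgeR, DESeq2 or limma voom, and 0 had an unadjusted p under 0.05 with edgeR. Il33, an epithelial alarmin, ranged from 0 in LowAhR+AD replicate 1 to 119 CPM within LowAhR+AD. It was 37.1 to 109 CPM in LowAhR+AD+BJ and 17.4 to 35.2 CPM in LowAhR, a change that did not pass (1.67, SE 0.93, adjusted p = 0.312). Il15, a gamma-chain cytokine, gave -1.85 (SE 0.92, adjusted p = 0.196) and Il11, a gp130 cytokine, 2.11 (SE 1.57, adjusted p = 0.407) in LowAhR+AD against LowAhR.

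Of 15 transducers tested, 1 was called in LowAhR+AD against LowAhR (lower) and 4 against Cont (1 higher, 3 lower), beside 12.6% and 21.8% of all tested genes, so the counts do not set this list apart. Stat5b, which acts below the TSLP, IL-2 and IL-7 receptors, averaged 46.4 ± 7.55 CPM in LowAhR and 24.8 ± 4.96 in LowAhR+AD, a change of -0.90 (SE 0.27, adjusted p = 0.0323) that was called in 4 of 8 fits with a library left out. Socs3, a feedback inhibitor of gp130 signalling, gave 1.18 (SE 0.40, adjusted p = 0.0586), and Stat3 gave 0.57 (SE 0.25, adjusted p = 0.149). Gata3, the Th2 transcription factor that hair follicle and epidermal cells also express, was not called against LowAhR (-0.38, SE 0.32, adjusted p = 0.459) and fell against Cont by 1.18 (SE 0.32, adjusted p = 0.0136).

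Of 13 tested genes known to respond to type 2 cytokines, 1 was called higher and 2 lower in LowAhR+AD against LowAhR, beside 12.6% of all tested genes called. Their median log2 change was -1.37, against 0.04 over all tested genes. With edgeR 8 of the 13 had an unadjusted p under 0.05, as did 4170 of all 14854 tested genes. DESeq2 called 4 of the list and limma voom 5. Against Cont, 2 were called higher and 1 lower with edgeR, and the median was -0.52. Chil3, encoding a chitinase-like protein of macrophages and neutrophils, had 0 counts in every LowAhR library and averaged 41.6 ± 37.5 CPM in LowAhR+AD, at least 108-fold higher than the limit of 3 counts per library allows (adjusted p = 0.00159), or at least 63.6-fold without LowAhR+AD replicate 4. Retnla, encoding the resistin-like protein RELMα of alternatively activated macrophages, averaged 1363 ± 547 CPM in LowAhR and 75.6 ± 50.7 in LowAhR+AD, and fell by 4.17 (SE 0.79, adjusted p = 0.00318). Ear2, an eosinophil-associated ribonuclease, fell by 3.73 (SE 0.98, adjusted p = 0.0196), and Ccl17, a chemokine that attracts Th2 cells, gave -4.95 (SE 1.63, adjusted p = 0.0535). The calls on Chil3 and Retnla held in 8 of 8 fits with a library left out and that on Ear2 in 7, but limma voom did not call Chil3 (adjusted p = 0.0778).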

How the data were processed

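Dorsal skin RNA of 16 mice was sequenced, with 1 library per mouse and 4 mice taken at random from each group. The authors deposited raw counts per gene symbol, made from QuantSeq single-end reads. Per the labels, the submitters' processing notes name Bowtie2, bedtools and mm10, with no versions, and the counter and its use of strand are not given in the sources used here. Each table held 23282 rows, and 0 rows named no gene. Groups and replicate numbers were taken from the labels. Replicates differed beyond sampling noise (chi-square per degree of freedom 16.4 to 285 over 24 pairs), and none was merged with another.

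Counts were filtered with filterByExpr (minimum count 10, minimum total 15), scaled by TMM (factors 0.892 to 1.16) and tested with edgeR 4.0.16 in R 4.3.3 (glmQLFit and glmQLFTest, 16 libraries in 1 model). Calls were made where the adjusted p (Benjamini-Hochberg, over 14854 tested rows) was under 0.05. Log2 CPM used a prior count of 2. The scripts were first tested on simulated data. Alternatives were RLE factors, DESeq2 1.42.0, limma voom (limma 3.58.1), no filter, a fit to only the 8 libraries compared, a replicate block, each library left out in turn and, for detection, 3 counts or thinned totals. Counting intervals and limits cover counting error only, since no molecular identifiers are mentioned.

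Named genes were all 9 members, the 4 genes of each related list with the lowest p in LowAhR+AD against LowAhR, Il31, Osm, Il4ra, Il13ra1 and Il6st, and the 3 genes most correlated with each tested member. Il5, Rad50 and 4930455D15Rik, neighbours in the genome, and the called markers were named after their values were seen. The members and lists were chosen with earlier results of these data known. Sequence of Tslp is not reported here, and neither are its coordinates.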

Additional observations from a re-analysis of the deposited data

Results flagged for a closer look

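Of 31 sets of 4 libraries with any spread (a member in a group), 6 had 1 library far from the other 3 by Dixon's criterion (the gap to the nearest library as a share of the range). For normally distributed values, chance exceeds the criterion in about 1 of 20 sets, and levels in CPM need not be distributed so. Il4 stood at 0.365 CPM in LowAhR+AD+BJ replicate 1, Il13 at 0.358 CPM in LowAhR replicate 4 and at 0.622 CPM in LowAhR+AD replicate 3, and Il31ra at 0.545 CPM in LowAhR+AD+BJ replicate 3, with the other libraries of each set at 0 counts, so that these 4 sets meet the criterion by construction and that rate does not apply to them. Il13ra2 (17.7 CPM) and Osmr (34.3 CPM) were high in LowAhR+AD+BJ replicate 1, where the other 3 libraries lay at 8.09 to 8.96 and 17.9 to 20.5 CPM. Of the 6 values, 3 belonged to LowAhR+AD+BJ replicate 1.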

How the results depend on the processing

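Il4, Il13 and Il31 had too few counts for a comparison at this depth. The members called in LowAhR+AD against Cont (3) were 1 with limma voom and 1 with only the 8 libraries compared, Il31ra in both. In LowAhR+AD against LowAhR and in LowAhR+AD+BJ against LowAhR the count of 0 became 1 with DESeq2 and 1 with limma voom. With a library left out, the counts ran from 0 to 3, 0 to 1 and 0 to 1 in these comparisons. In LowAhR+AD against Cont they were 0 without Cont replicate 1 or LowAhR+AD replicate 4 and 1 without Cont replicate 2. The 1 came without LowAhR replicate 4 in LowAhR+AD against LowAhR and, in LowAhR+AD+BJ against LowAhR, without LowAhR+AD+BJ replicate 3, where Il31ra passed (adjusted p = 0.0168). Genes of the related lists called with only the 8 libraries compared were 2 in LowAhR against Cont, 4 in LowAhR+AD against LowAhR and 9 in LowAhR+AD+BJ against LowAhR (7 with DESeq2), and with a library left out 4 to 10 in LowAhR+AD against LowAhR, 7 to 14 in LowAhR+AD against Cont and 2 to 8 in LowAhR+AD+BJ against LowAhR. The causes were not tested.

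Under these alternatives, changes of direction were found only where a gene was not called. With limma voom, Il33 was -1.76 in LowAhR+AD against LowAhR and -1.20 against Cont, and Osm was 0.039 against Cont. With a library left out, the log2 change ran from -0.19 to 0.14 for Crlf2 and -0.50 to 1.27 for Il33 in LowAhR+AD against LowAhR. Against Cont it ran from -0.75 to 0.079 for Tslp, -0.24 to 1.62 for Il33 and -1.71 to 1.89 for Osm. In LowAhR+AD+BJ against LowAhR+AD it ran from -3.90 to 0.37 for Il31ra, -0.031 to 0.39 for Osmr and -0.38 to 0.11 for Il2rg, and against LowAhR from -0.15 to 0.77 for Tslp and -0.40 to 0.067 for Il7r.

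Replicate numbers did not pair the libraries (correlations of same-numbered deviations -0.055 to 0.17). With the replicate number as a block, 3 members were called in LowAhR+AD against Cont and 0 in each other comparison, and the related lists held 8 called genes in LowAhR+AD against LowAhR. Detection was the same at 3 counts.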

Other observations

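The genes whose log2 CPM followed each member most closely over the 16 libraries are given as a description, since the libraries share 4 groups and 2 ranges of depth. For Il31ra they were Rb1cc1 (Pearson r = 0.98), an autophagy factor, Ankrd12 (0.97) and Utrn (0.97), the dystrophin relative utrophin. All had far higher levels than Il31ra, and Rb1cc1 averaged 276.3 ± 3.84 CPM in Cont, 227 ± 14.0 in LowAhR, 125.8 ± 23.3 in LowAhR+AD and 121.8 ± 21.4 in LowAhR+AD+BJ (SD, n = 4). Its change in LowAhR+AD against Cont was -1.14 (SE 0.18, adjusted p = 5.05e-04 with edgeR), against -4.75 for Il31ra. For the other members the highest values were 0.94 (Crlf2 with Wfdc17, then Bglap2 and Tmem126a), 0.92 (Il2rg with Cenpb, then 1810011O10Rik and Cxx1b), 0.88 (Osmr with Med7, then Jkamp and Ier3), 0.83 (Il13ra2 with Ndufa5, then Mrpl42 and Dynlt3), 0.82 (Il7r with Secisbp2l, then Rnpc3 and Asgr2) and 0.82 (Tslp with 5031425E22Rik, then Zbtb24 and Arf5). Between members, Il7r and Il2rg had r = -0.58, Il31ra and Il2rg -0.56 and Il31ra and Il7r 0.49.

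Changes differed with transcript length in the comparisons with Cont and, less, in those of LowAhR+AD+BJ. They differed with GC content in those that include LowAhR+AD. These observations were made after the data were seen. From the shortest to the longest quintile of transcripts, the median log2 change ran from 0.36 to -0.27 in LowAhR against Cont and from 0.33 to -0.27 in LowAhR+AD against Cont, over the 96.2% of tested genes with a transcript. It ran from 0.15 to -0.12 in LowAhR+AD+BJ against LowAhR+AD and from 0.11 to -0.14 in LowAhR+AD+BJ against LowAhR. In LowAhR+AD against LowAhR the median log2 change lay only between -0.01 and 0.08. From the lowest to the highest quintile of GC content, it ran from 0.24 to -0.30 in LowAhR+AD+BJ against LowAhR+AD. It ran from -0.14 to 0.29 in LowAhR+AD against LowAhR and from -0.14 to 0.30 in LowAhR+AD against Cont. In LowAhR+AD against Cont, among genes in the same quintile of length and of GC content, the median change was 0.04 for the 610 genes like Il31ra, -0.06 for the 606 like Il7r and 0.30 for the 547 like Il2rg, beside changes of -4.75, -1.27 and 1.56 for the members themselves. In LowAhR+AD+BJ against LowAhR+AD, it was 0.47 for the 321 genes like Tslp, beside 1.47 for Tslp. Rb1cc1, Ankrd12 and Utrn had transcripts of 7607, 10821 and 12382 bases, and that of Il31ra has 3680.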
